A study of Homo sapiens with 4 samples.

Results

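The 10 human globin genes were examined in 2 lists of chromatin immunoprecipitation sequencing (ChIP-seq) peaks. Members were all peaks whose summit, the position of highest coverage, lay inside or within 30 kb of HBB, HBD, HBG1, HBG2, HBE1, HBA1, HBA2, HBZ, HBM or HBQ1. They numbered 5 of 21300 peaks: 5 of 15993 in the TGF-β1 list and 0 of 5307 in the control list. The genes were chosen by their name with the positions, pileups and lengths of these same peaks known, so the counts and values are a description and no test was made on them. The control list came from cells without a named treatment, and the TGF-β1 list from cells given transforming growth factor β1 at 20 ng/mL for 2 h. The labels call the cells of both groups HSC, of the type stem cells and progenitors, grown in medium with fetal bovine and human serum. The protocol text shared by all libraries also names GDF11 at 100 ng/mL, and no label says whether any of these cells received it. Each group had 1 ChIP library and 1 input library of chromatin that was not immunoprecipitated, so there were no replicates and every difference is between 2 libraries. No label used here names the antibody, and peak positions could not check the cell type against its markers. The series title names the question, what TGF-β1 does to chromatin at the β-globin and MYC enhancers.

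Hemoglobin is built from α-type and β-type globin chains, each type made from its own gene cluster. Along the β cluster on chromosome 11 the embryonic HBE1, the fetal HBG2 and HBG1 and the adult HBD and HBB follow each other in the order in which they are used in development. A distal enhancer, the locus control region, lies beyond HBE1 and acts on all of them. The α cluster on chromosome 16 holds the embryonic HBZ, the adult HBA2 and HBA1, and the minor genes HBM and HBQ1, with its enhancers inside the neighbouring gene NPRL3. As background, a β-type globin gene has 3 exons, a short first intron and a long second intron. The gene table used here gives the ends of genes but no exon borders, so peaks were placed by their distance from the ends, and overlap with exons and introns was not analysed here.

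Inside the β-type genes the TGF-β1 list had 4 summits, in HBB, HBG1 and HBG2. In each of these genes a summit lay close to the 3′ end, the end of the annotated transcript. In HBB (chromosome 11, 5225464 to 5227071, hg38) that summit was 158 bases from the 3′ end, and its peak covered the stretch from 55 to 287 bases from it. The HBG1 summit (gene 5248269 to 5249857) was 142 bases from the 3′ end, with a peak from 15 to 228 bases. The HBG2 summit (gene 5253188 to 5254781) was 133 bases from the 3′ end, with a peak from 38 to 177 bases. The 3 summits thus fell within 25 bases of each other on this scale, and the stretch from 55 to 177 bases, 123 bases long, was under a peak in all 3 genes. The sequences of HBG1 and HBG2 are almost the same, and a read from one can be placed in the other. Their summits were 4910 bp apart and the genes themselves 4919 bp apart, so these 2 peaks may not be independent.

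**Figure D1:**
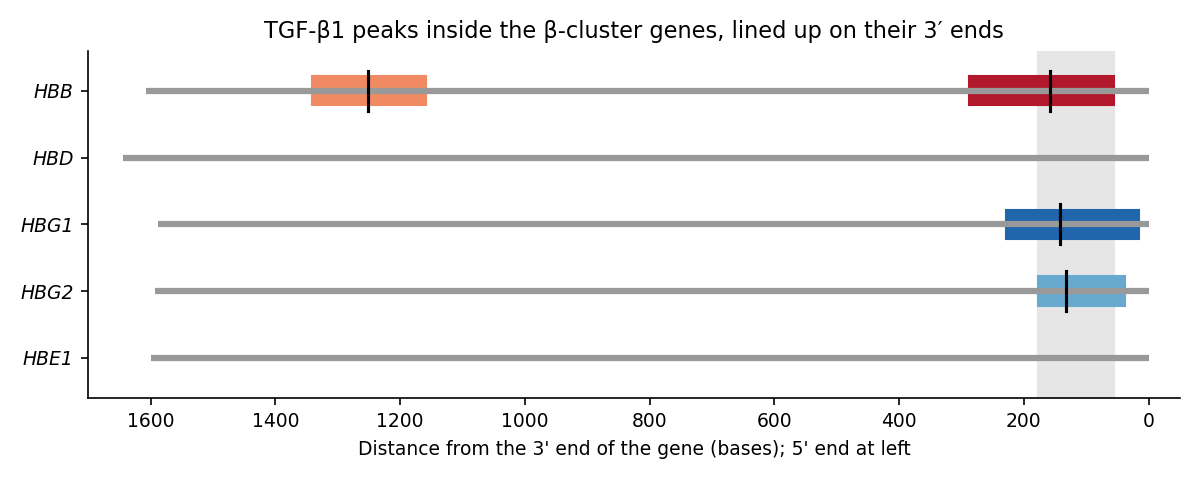
Horizontal lines are the 5 β-cluster genes, with distance from the 3′ end in bases on the x axis and the 5′ end at the left. Boxes are TGF-β1 peaks, black ticks their summits, and the grey band is the stretch from 55 to 177 bases that was under a peak in HBB, HBG1 and HBG2; HBD and HBE1 held no peak.

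HBB alone held another peak, in its 5′ part. It covered the stretch from 267 to 449 bases past the 5′ end, where transcription starts, with a summit at 356 bases, 22.1% of the way along the gene. The HBB peaks were separated by 870 bp without a peak, and together they covered 416 of the 1608 bases of the gene, or 25.9%. By the textbook layout, the last exon forms the 3′ end of these genes and the second exon lies in the 5′ part, with the long second intron between them. Whether the peaks follow exon borders, and whether their tags came from genomic DNA or from spliced copies of the genes, was not tested, so the pileups and folds at HBB, HBG1 and HBG2 are given without that check. The single peaks of HBG1 and HBG2 covered 13.5% and 8.78% of their genes. No peak reached the 5′ end of any globin gene: the first 267 bases of HBB and all of the first 1360 bases of HBG1 and 1416 bases of HBG2 lay outside peaks. HBD, which makes the minor adult δ chain, had no peak in its body, and the nearest summit was that of the HBB 5′ part at 6.12 kb.

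The peak nearest to HBE1 lay outside the gene. Its summit was 1380 bp before the 5′ end of HBE1 (gene 5268345 to 5269945), on the side of the locus control region. The sites of that region were not placed here. It had the lowest pileup and fold of the 5. From the first to the last, the 5 summits spanned 45.7 kb. The TGF-β1 list had no other summit for 167 kb below HBB. It also had no other for 460 kb above HBE1, the side of the locus control region. No control summit lay nearer than 165 kb to HBB, and the distance grew to 207 kb at HBE1, because all 5 genes had the same nearest control peak (pileup 21, fold enrichment 4.10). The limit of 30 kb therefore fell in a wide gap at this cluster, with members at most 1.38 kb from a gene and the nearest summit of either list outside it 165 kb away.

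**Figure D2:**
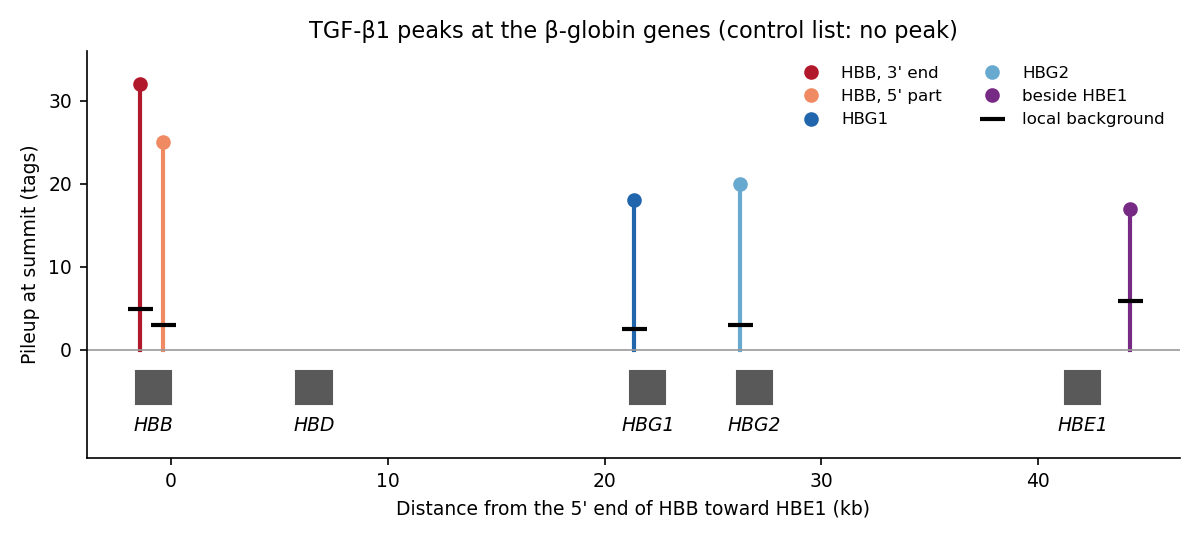
The x axis is distance in kb from the 5′ end of HBB toward HBE1, and the y axis is pileup at the summit in tags. Dots on stems are the 5 TGF-β1 peaks, short black bars their local background, and grey boxes the genes; the tallest stem is the HBB peak at the 3′ end, with a pileup of 32 over a background of 4.91.

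Pileup is the number of extended ChIP tags over the summit, and the local background is the number expected there from the input or from the genome-wide mean. At the 3′ end of HBB the pileup was 32 tags over a background of 4.91, a fold enrichment of 5.58. In the 5′ part of HBB it was 25 tags over 2.95, a fold of 6.59. HBG1 had 18 tags over 2.54 and HBG2 had 20 tags over 2.95, with folds of 5.37 and 5.32. The peak beside HBE1 had 17 tags over 5.90 and a fold of 2.61. The HBB 3′ peak thus had the highest pileup and the HBB 5′ peak the highest fold, since the background under the 3′ peak was 2.12 times the genome-wide value of 2.32 tags and under the 5′ peak 1.27 times. The background at the HBE1 peak was the highest of the 5, at 2.55 times the genome-wide value. These are the authors' values for single peaks, and each peak's interval cannot be given without replicates.

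Within the TGF-β1 list the peaks in the genes stood higher by fold than by pileup. By fold, 0.300% of all TGF-β1 peaks were at or above the HBB 5′ peak, 1.97% at or above the HBB 3′ peak, 3.15% at or above HBG1 and 3.53% at or above HBG2. The peak beside HBE1 was near the bottom, with 85.7% at or above it. By pileup the shares were 20.3% for the HBB 3′ peak, 27.9% for the HBB 5′ peak, 47.5% for HBG2, 62.6% for HBG1 and 70.8% for the HBE1 peak. Much of the list's high coverage was in 1 Mb bins crowded with peaks (at least 20 of both lists together), and no globin peak lay in such a bin. Among the 11496 TGF-β1 peaks outside these bins, 2.71% had a pileup at or above that of the HBB 3′ peak and 7.64% at or above that of the HBB 5′ peak, against 30.3% for HBG2, 49.6% for HBG1 and 60.5% for HBE1. By −log10 q-value, 6.47% of all TGF-β1 peaks were at or above the HBB 3′ peak and 7.08% the HBB 5′ peak. The shares for HBG2, HBG1 and the HBE1 peak were 17.1%, 18.9% and 95.4%. Outside the crowded bins the 5 shares were 0.452%, 0.583%, 5.51%, 6.61% and 94.3%, in the same order. The HBE1 peak had a −log10 q-value of 1.70, close to the lowest of the list, 1.304. All of these ranks describe values that the peak caller itself used.

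**Figure D3:**
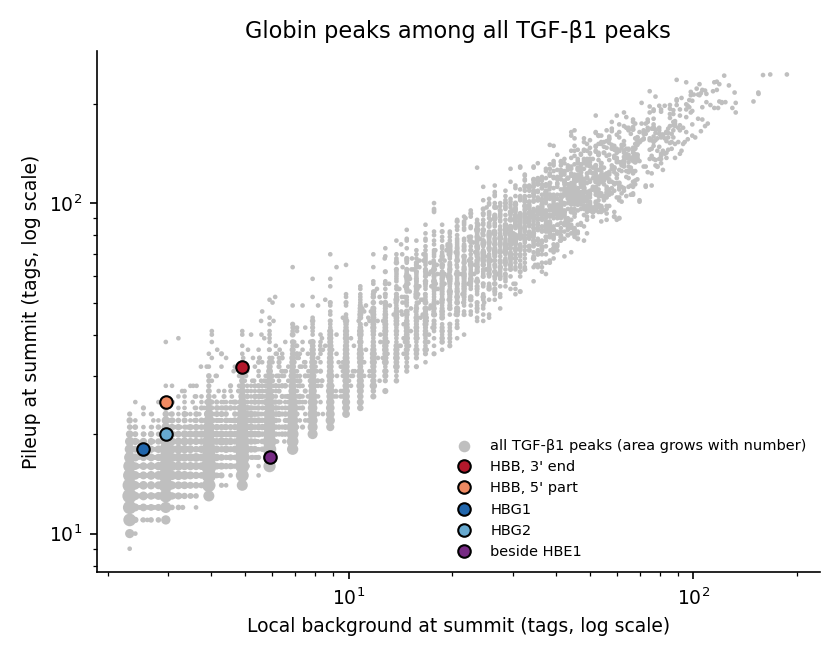
Each grey point is a combination of local background (x axis, tags, log scale) and pileup (y axis, tags, log scale) found in the TGF-β1 list, larger where more peaks share it. Coloured points are the 5 globin peaks: those of HBB, HBG1 and HBG2 lie at backgrounds of 2.54 to 4.91 tags and pileups of 18 to 32, and the one beside HBE1 at a background of 5.90 and a pileup of 17.

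The peaks also differed in length. The HBB 3′ peak was 233 bp long, the HBG1 peak 214 bp, the HBE1 peak 213 bp, the HBB 5′ peak 183 bp and the HBG2 peak 140 bp, against a list median of 159 bp. The caller kept no peak shorter than the fragment length of 136 bp, so the HBG2 peak was close to the shortest possible. A summit with another summit within 1093 bp, the spacing of the HBB pair, was uncommon outside the crowded bins, where 131 of 11496 TGF-β1 summits (1.14%) had one.

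The libraries differed in depth, so the 5 pileups were also scaled to that of the control. The control ChIP library had 36280696 tags after removal of duplicates and the TGF-β1 library 45984282, and with the fragment lengths of 148 and 136 bp the control coverage expected at equal enrichment was 0.859 times that of TGF-β1. At that depth the HBB 3′ peak would have 27.5 tags, the HBB 5′ peak 21.5, HBG2 17.2, HBG1 15.4 and the HBE1 peak 14.6. With the background scaled in the same way, the lowest control pileup that reaches the smallest −log10 p-value in the control list (4.01) was 14 tags at the HBB 3′ peak, 10 at the HBB 5′ peak and at HBG2, 9 at HBG1 and 15 at the HBE1 peak. The scaled pileups of the 4 peaks in the genes were above these values, and that of the HBE1 peak was below. Members were peaks already called in the TGF-β1 list, so these comparisons and the ratios that follow partly reflect that choice. The share of all TGF-β1 peaks that would pass in this way was not computed. The background in the control was assumed, not measured, and the part of depth in the absence of control peaks was not tested. Tags were 60 bp long for the control list and 43 bp long for the TGF-β1 list. After removal of duplicates, the control input library had 66537905 tags and the TGF-β1 input library 46802425. The scaling did not adjust for tag length or input depth, and their part in the absence of control peaks was not tested.

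The same calculation gives what an absent control peak allows. At HBB the control could have held up to 13 tags at the 3′ position and 9 at the 5′ position without a call, which at TGF-β1 depth corresponds to 15.1 and 10.5 tags. The TGF-β1 pileups were 2.11 and 2.39 times these limits. For HBG1 and HBG2 the ratios were 1.93 and 1.91, and for the HBE1 peak 1.04. With the assumed control background doubled, the ratios fell to 1.37 and 1.53 in HBB, 1.19 in HBG1, 1.23 in HBG2 and 0.635 at the HBE1 peak. These ratios rest on the scaled TGF-β1 background, because control coverage at sites without a control peak was not analysed here, and they carry no replicate error. A stretch that passed the p-value but was shorter than the fragment length would also have gone uncalled. As a share of the list, 0 of 5307 control peaks allows up to 0.0565%, for counting error only. The share of the TGF-β1 list, 5 of 15993 peaks, was below that limit. These counts alone therefore do not show a lower share in the control list.

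**Figure D4:**
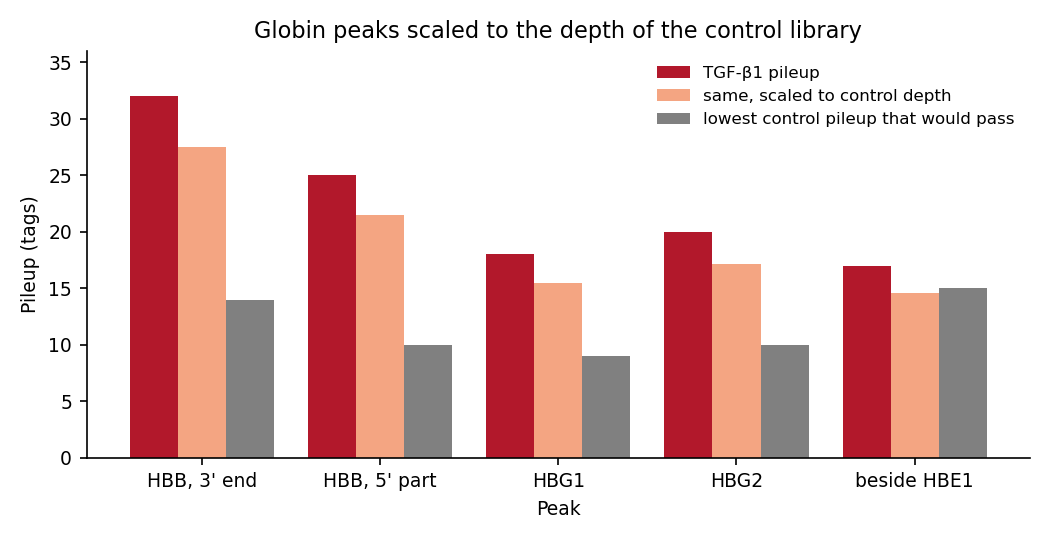
Bars give pileup in tags for each globin peak: as deposited in the TGF-β1 list (red), scaled to the control library's depth (orange), and the lowest control pileup that would have passed the control list's limit (grey). The orange bar is above the grey one for the 4 peaks in HBB, HBG1 and HBG2 and below it for the peak beside HBE1 (14.6 against 15).

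Against other genes the globin bodies were a small target. Of the 10 globin genes, 3 held a TGF-β1 summit, against 15.8% of all 20037 protein-coding genes, most of which are longer than 5 kb. Among the 3197 protein-coding genes of at most 5 kb, 8 held a TGF-β1 summit, or 0.25%, and 3 of the 8 were HBB, HBG1 and HBG2. HBB was the only one with more than 1 summit (0.0313% of these genes), also when genes of up to 10 kb were counted. The other 5 were PRR23A (fold 4.06), CRIPTO3 (3.62), MRPL16 (3.57), which encodes a mitochondrial ribosomal protein, CIART (3.05), a circadian repressor gene, and SCGB1A1 (2.96), which encodes a secretory protein of airway cells. Their folds were all below the lowest globin gene value of 5.32, whereas their pileups of 11 to 26 tags overlapped the globin range of 18 to 32. In the control list 1 of the 3197 genes held a summit (0.0313%), TIMM10B, with a pileup of 22 and a fold of 3.89.

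Summits at the very end of a gene were also few. A TGF-β1 summit inside the body and within 300 bases of either end was found in 5 of the 20037 protein-coding genes (0.025%), namely HBB, HBG1, HBG2, TMC5 (143 bases from its end, pileup 23, fold 3.05) and DSC1 (88 bases, pileup 20, fold 5.32), which encodes the cell adhesion protein desmocollin. Among the genes of at most 5 kb the number was 3 (0.0938%), HBB, HBG1 and HBG2. The control list had 1 such gene (0.00499%), CD38, with a pileup of 18 and a fold of 3.94. The distance of 300 bases was set after the globin positions were known.

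**Figure D5:**
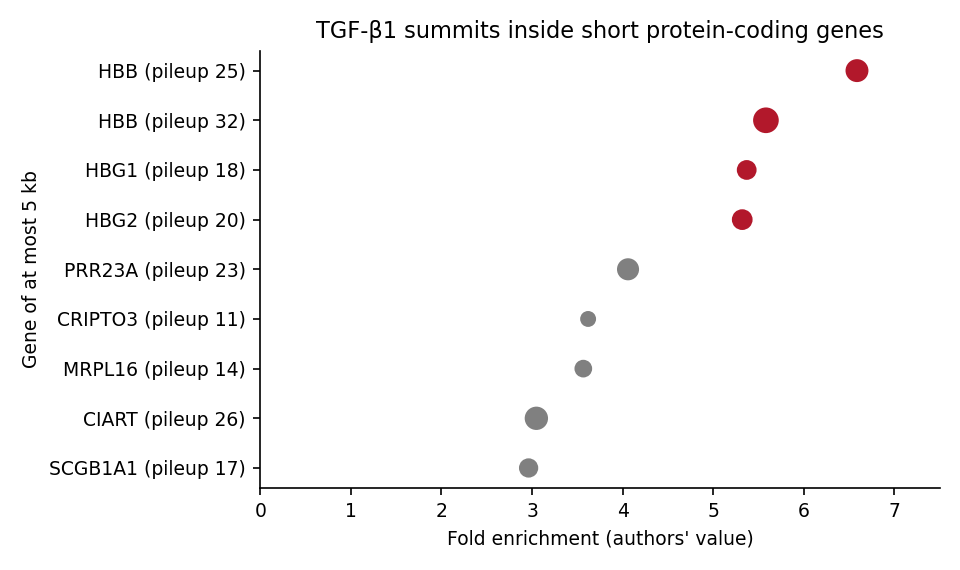
Each point is a TGF-β1 summit inside a protein-coding gene of at most 5 kb, with the authors' fold enrichment on the x axis and point area growing with pileup. The 4 summits in globin genes (red) have folds of 5.32 to 6.59, and the 5 in other genes (grey) have folds of 2.96 to 4.06.

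The α-type genes had no summit in or within 30 kb in either list. The nearest TGF-β1 summit was the same for all of them and lay 72.5 kb from HBQ1, 76.1 kb from HBA1, 79.9 kb from HBA2, 86.9 kb from HBM and 99.1 kb from HBZ. That peak (chromosome 16, 253480 to 253647) was inside FAM234A, with a pileup of 17 and a fold of 2.61, the same deposited values as the peak beside HBE1. The nearest control summit was 682 kb from HBQ1 and 709 kb from HBZ. NPRL3, whose introns carry the α-globin enhancers, held no summit in either list. Counted over both clusters, 5 of 10 globin genes had a TGF-β1 summit in or within 30 kb, against 29.7% of all protein-coding genes. For control summits it was 0 of 10, against 10.4%. The 5 are neighbours whose windows overlap and share the same peaks, so they are not separate cases. HBD and HBE1 counted only through peaks outside their bodies. HBA1 and HBA2 share nearly all of their sequence, and no source used here states how reads that match both were treated, so coverage there may be understated.

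Promoter sequences from RefSeq (GRCh38.p14) were matched for 2 of the 10 members, HBD and HBM, and are shown as the starts of a β-type and an α-type gene over which neither list had a peak. Each is the stretch of 250 bases before the gene's start, 5′ to 3′. Capitals mark the letters CCAAT, the GATA core motif GATAA, the KLF core motif CACCC and the TATA motif TATAA. In HBD the letters CCAAT begin at position -153 from the gene's start. Whether they serve as a CCAAT box was not tested. Either strand was searched, so the capitals in the second part of the HBD sequence are the GATA motif read from the other strand, and the second set of capitals in HBM is the KLF motif read likewise.
HBD (chr11:5234484-5234733, minus strand): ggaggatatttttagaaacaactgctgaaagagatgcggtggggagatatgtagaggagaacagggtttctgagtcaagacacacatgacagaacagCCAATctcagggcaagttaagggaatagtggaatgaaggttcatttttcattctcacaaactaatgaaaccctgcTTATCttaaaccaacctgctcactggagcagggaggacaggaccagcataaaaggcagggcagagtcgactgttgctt
HBM (chr16:165728-165977, plus strand): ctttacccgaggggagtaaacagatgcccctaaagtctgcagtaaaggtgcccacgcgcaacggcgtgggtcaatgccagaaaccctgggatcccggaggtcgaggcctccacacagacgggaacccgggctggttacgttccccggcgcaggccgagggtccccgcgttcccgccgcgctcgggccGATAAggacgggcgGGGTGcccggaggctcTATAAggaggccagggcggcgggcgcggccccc

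GATAA, the core of the motif bound by GATA1, the main erythroid transcription factor, occurred once in both promoters and at least once in 20.4% of the 35114 promoters searched. CCAAT occurred once in HBD and not in HBM (32.0% of promoters). CACCC, the core of the motif of KLF1, an erythroid activator of globin genes, occurred once in HBM and not in HBD (54.7%), and so did TATAA (18.9%). GTCT, the short SMAD motif, occurred once in HBD and 2 times in HBM, as it did at least once in 77.5% of promoters, and the palindrome GTCTAGAC occurred in neither (0.182%). CANNTG, the E-box, occurred 2 times in HBD and once in HBM (61.8%), and TGACCA in neither (9.19%). These matches are descriptions of the letters in these windows.

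Genes that flank the clusters were counted in the same way. The 27 neighbours included the pseudogenes HBBP1, HBAP1 and HBZP1, the non-coding gene BGLT3 between HBBP1 and HBG1, and nearby olfactory receptor genes. FAM234A held the only TGF-β1 summit in a body and none held a control summit, against 15.8% and 5.5% of all protein-coding genes. These sets are unlike, since the neighbours include pseudogenes, a non-coding gene and short genes. Among protein-coding genes of at most 5 kb the shares were 0.25% and 0.0313%. FAM234A itself is longer than 5 kb. Within 30 kb, 9 had a TGF-β1 summit, against 29.7%, and 0 a control summit, against 10.4%. For 4 of them, OR51V1, HBBP1, BGLT3 and OR51B4, these were the globin peaks themselves, and for LUC7L, RGS11, ARHGDIG, PDIA2 and FAM234A it was the FAM234A peak.

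Among 49 genes for regulators of globin expression and for hemoglobin assembly, 6 held a TGF-β1 summit, against 15.8% of all protein-coding genes, and 3 a control summit, against 5.5%. Within 30 kb the numbers were 9, against 29.7%, and 4, against 10.4%. As shares of the 49 genes, these counts were below or near those of all protein-coding genes. SOX6, which represses fetal globin together with BCL11A, is a long gene and held 5 TGF-β1 summits, the strongest with a pileup of 27 and a fold of 6.45. It also held 1 control summit with a pileup of 18 and a fold of 2.94. LIN28B, an RNA-binding protein gene linked to the fetal program, held 4 TGF-β1 summits with a highest fold of 4.05. NR2C2, which encodes TR4, a nuclear receptor that binds the fetal globin promoters, held 2, the stronger with a pileup of 34 and a fold of 4.33. The corepressor genes KDM1A (3.47) and HDAC2 (3.05) and the transcription factor gene KLF3 (3.90) held 1 each. HBS1L, IGF2BP1 and BACH1 had a TGF-β1 summit 13.6, 8.20 and 17.2 kb away. The other control summits were in ATRX (4.21), a chromatin remodeler gene needed for α-globin expression, and in BACH1 (3.72), a heme-sensing repressor gene, and 28.0 kb from MBD2 (4.45). AHSP, GATA1, KLF1, BCL11A, ZBTB7A, TAL1 and LDB1 were among those without a summit within 30 kb in either list.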

How the data were processed

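The authors aligned reads to hg38 with Bowtie2, per the submitters' processing notes, which name MACS2 2.1.0 as peak caller, and called peaks with MACS 2.2.7.1, per the file headers. Peaks passing a q-value of 0.05 were called for each ChIP library over the matching input, with 1 tag kept per position. The deposited pileup is a signal (coverage at the summit). The deposited fold enrichment is the ratio (pileup + 1)/(local background + 1), and the authors' −log10 p-value and −log10 q-value come from the caller's Poisson model. Positions are counted from 1.

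Computed here with Python 3.11.15, pandas 2.3.3 and scipy 1.17.1 were the local background at each summit (from pileup and fold), distances to gene ends in a RefSeq table (GRCh38.p14), ranks, and pileups scaled to control depth. Recomputing the p-values from it gave the deposited −log10 values to within 0.00021. Gene counting was tested on simulated summits. Strand came from the RefSeq promoters of HBD and HBM and, for the other genes of each cluster, from textbook knowledge. Named were all 10 members and those of the 27 neighbours and 49 regulators with a summit within 30 kb. Up to 10 short genes like HBB were to be named, by number of summits and fold. The planned rule for these was at most 5 kb with 2 or more TGF-β1 summits, which HBB alone met. The other short genes named held 1 summit each and fell outside that rule. The members and lists were chosen with earlier results of these data known. No test between conditions was possible with 1 library per group.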

Additional observations from a re-analysis of the deposited data

How the results depend on the processing

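The 5 TGF-β1 summits at the β cluster became 2, both in HBB, when −log10 q had to reach 10. The α cluster had 1 TGF-β1 summit, that of FAM234A, with a window of 100 kb. The control counts of 0 at both clusters stood in all 6 alternatives tried for each. HBB was the only short gene with 2 or more summits, and 0 had 3 or more. The 8 short genes with a summit became 32 with genes of up to 10 kb, 4 with a −log10 q of at least 5 and 4 with lists of equal length by fold, alternatives chosen after seeing the data. Without HBG1 and HBG2, 1 of the 3 summits within 300 bases of a 3′ end was left, also chosen after seeing the data. Of 30 recomputed percentages for single peaks by pileup, length or fold, against subsets of the list, 23 fell outside the 95% Wilson interval of the value against all peaks. No paired analysis was possible because each group had 1 library. The planned placement against exons was not run, since exon borders were not used here. Control coverage at the 5 sites was not analysed here, so what depth limits there was not tested.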

Other observations

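The deposited pileup and fold of the peak beside HBE1 were shared by 159 TGF-β1 peaks, itself and the FAM234A peak included. The HBG2 values were shared by 51 peaks, among them the one near the end of DSC1, whereas the HBB 3′ values were shared by 2 peaks and the HBB 5′ values by 3.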
